A study of Homo sapiens with 10 samples.

Results

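ZNF521, ZNF423 and the EBF genes encode transcription factors that bind one another, and their RNA levels were compared between SH-SY5Y cells carrying mutant and wild-type SOD1. The set was named by gene: ZNF521, ZNF423, EBF1, EBF2, EBF3 and EBF4. For each, the probe set annotated with that 1 symbol was taken, and where several existed the one with the highest mean over all 10 arrays would have been used. Each of 5 genes had exactly 1 such probe set, so no choice by level was needed, and EBF3 had none and was not analysed here. The set thus held 5 measured genes of 14232 named genes. The set was chosen by the SOD1(G93A) against wild-type SOD1 difference in ZNF521 intensity, to which its partners and relatives were added by name, so the ZNF521 difference is given as a description without a test.

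The mutant line was SH-SY5Y, a human neuroblastoma cell line of noradrenergic character, stably transfected with SOD1(G93A), the glycine-to-alanine mutant of copper-zinc superoxide dismutase found in familial amyotrophic lateral sclerosis. Its samples were 3, 9, 12, 15 and 18. The comparison line was SH-SY5Y stably transfected with wild-type SOD1, samples 2, 8, 11, 14 and 17. Both lines were kept in medium with serum, antibiotics and G418, so the controls also carry a transgene and its selection. The sources used here do not say whether either line was 1 clone or a pool, nor whether the samples of a line were separate cultures. P-values therefore reflect only sample-to-sample spread, part of which may be technical. The effect of the transgene and any other difference between the lines cannot be told apart. SOD1(G93A) sample 18 and wild-type SOD1 sample 17 stood apart from the rest on the third principal component (11.4% of the variance), with scores of −22.7 and −18.7 against −8.37 to 14.6 in the other 8. Without both samples, the log2 fold change of ZNF521 was −2.21, that of ZNF423 −0.35 (limma, adjusted p = 0.0303) and that of EBF4 0.38 (limma, adjusted p = 0.0208), and 5 BMP and SMAD genes were lower and 1 higher.

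ZNF521 and ZNF423 are paralogous proteins with long arrays of zinc fingers. Both bind EBF proteins and can hold back their activity, and both carry a short amino-terminal motif that recruits the NuRD chromatin remodelling and deacetylase complex. ZNF423 also binds SMAD proteins, the messengers of bone morphogenetic protein (BMP) signals, and in neuroblastoma cells it acts as a cofactor of retinoic acid receptors. EBF proteins bind DNA as dimers through a zinc-containing domain, and are known for B-cell, fat-cell and neuronal differentiation.

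Start regions are shown for the called members for which the reference set used here held one. They let a reader see the letters that EBF proteins and BMP-activated SMADs are known to bind. This set (GRCh38.p14) held start regions for 4 of the 6 genes, each of 300 bases, from 250 before to 50 after the start. It held none for ZNF521 and EBF2. The motifs searched were CCCNNGGG, the full EBF palindrome, which is the same letters flanked directly by a thymine before and an adenine after, and a GC-rich SMAD element. The last of these is spelled TGGCGCC, and it was searched on both strands, while the other two read the same on either strand. Matches are in capitals, overlapping matches run together, and N is any base.
ZNF423, upstream start, minus strand, chr16:49857870-49858169: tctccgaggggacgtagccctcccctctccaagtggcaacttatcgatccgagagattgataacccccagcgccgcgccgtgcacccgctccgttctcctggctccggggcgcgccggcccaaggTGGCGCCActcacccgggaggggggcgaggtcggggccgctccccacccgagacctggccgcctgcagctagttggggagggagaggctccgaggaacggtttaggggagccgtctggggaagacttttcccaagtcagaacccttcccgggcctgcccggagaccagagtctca
ZNF423, inner start, minus strand, chr16:49664275-49664574: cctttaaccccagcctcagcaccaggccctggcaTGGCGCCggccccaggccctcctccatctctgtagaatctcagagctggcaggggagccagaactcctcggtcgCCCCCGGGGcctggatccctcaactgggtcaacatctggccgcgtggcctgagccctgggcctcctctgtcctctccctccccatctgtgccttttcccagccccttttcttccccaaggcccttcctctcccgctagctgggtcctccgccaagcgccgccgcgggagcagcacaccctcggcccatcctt
EBF4, plus strand, chr20:2692530-2692829: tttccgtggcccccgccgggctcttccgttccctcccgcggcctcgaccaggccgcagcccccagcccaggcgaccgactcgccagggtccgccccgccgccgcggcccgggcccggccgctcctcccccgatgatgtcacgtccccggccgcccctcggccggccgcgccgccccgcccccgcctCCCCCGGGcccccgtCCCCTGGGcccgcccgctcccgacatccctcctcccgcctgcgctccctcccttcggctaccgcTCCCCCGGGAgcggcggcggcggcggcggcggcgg
Both ZNF423 regions held TGGCGCC, which 5.81% of 35116 start regions contain. In the upstream region it is read on both strands over 8 overlapping bases. The inner ZNF423 region also held CCCNNGGG at 2 overlapping positions, and 19.1% of all start regions hold this short form. The EBF4 region held the full EBF palindrome once, at bases 266 to 275 of the region, against 1.21% of all start regions, and it held CCCNNGGG 3 times including that match. The EBF1 region held none of the motifs. These matches describe letters and are not evidence of binding.

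ZNF521 was far lower in the SOD1(G93A) line. Its log2 intensity was 3.90, 3.62, 3.49, 3.90 and 3.55 in SOD1(G93A) samples 3, 9, 12, 15 and 18, against 5.68, 5.88, 6.23, 5.97 and 5.99 in wild-type SOD1 samples 2, 8, 11, 14 and 17. The groups were separated by more than the whole range of either one. Means were 3.69 ± 0.19 in SOD1(G93A) arrays and 5.95 ± 0.20 in wild-type SOD1 arrays (SD, n = 5 each), a log2 fold change of −2.26 (SE 0.12, 95% interval −2.52 to −2.01), or 20.9% of the wild-type level. ZNF521 was chosen by this difference, and the interval takes no account of that choice. By size of the fall ZNF521 stood at rank 11 of 14232 named genes. In 3 of the 5 SOD1(G93A) arrays ZNF521 lay below that array's lower quartile of probe sets, and in 0 of the wild-type SOD1 arrays. Values so low are compressed on the log2 scale, so the printed fold may understate the difference.

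ZNF423, the paralog, was also lower, by much less. Its log2 intensity was 8.04, 7.87, 7.83, 7.98 and 7.93 in SOD1(G93A) samples 3, 9, 12, 15 and 18, against 8.18, 8.26, 8.25, 8.41 and 8.38 in wild-type SOD1 samples 2, 8, 11, 14 and 17. All SOD1(G93A) arrays lay below all wild-type SOD1 arrays. ZNF423 averaged 7.93 ± 0.09 in SOD1(G93A) arrays and 8.30 ± 0.09 in wild-type SOD1 arrays (SD, n = 5 each). Its log2 fold change was −0.37 (SE 0.06, 95% interval −0.51 to −0.22), or 77.6% of the wild-type level, and passed the threshold of an adjusted p of 0.05 by limma (adjusted p = 0.00464).

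EBF4, a further member of the EBF family, was higher in the SOD1(G93A) line. Its log2 intensity was 7.35, 7.23, 7.47, 7.37 and 7.12 in SOD1(G93A) samples 3, 9, 12, 15 and 18, against 6.84, 6.97, 7.04, 7.05 and 7.09 in wild-type SOD1 samples 2, 8, 11, 14 and 17. The groups did not overlap, but SOD1(G93A) sample 18 and wild-type sample 17 nearly met. EBF4 averaged 7.31 ± 0.14 in SOD1(G93A) arrays and 7.0 ± 0.10 in wild-type SOD1 arrays (SD, n = 5 each), a log2 fold change of 0.31 (SE 0.08, 95% interval 0.14 to 0.48), or 124.0% of the wild-type level (limma, adjusted p = 0.0339). The call on the log2 fold change of EBF4 was lost when arrays were centred on their medians (adjusted p = 0.0504) or quantile-normalized again (adjusted p = 0.0545). It was also lost without any 1 of samples 3, 12, 15, 2, 8, 11 or 14 (adjusted p = 0.0586 to 0.0851).

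EBF1, the factor that commits progenitors to the B lineage, did not pass the threshold. Its log2 intensity was 6.10, 6.20, 6.02, 6.02 and 6.04 in SOD1(G93A) samples 3, 9, 12, 15 and 18, against 5.82, 6.01, 5.95, 6.0 and 5.91 in wild-type SOD1 samples 2, 8, 11, 14 and 17. The arrays of the 2 groups did not overlap, although the lowest SOD1(G93A) array and the highest wild-type SOD1 array were almost level. The log2 fold change of EBF1 was 0.14 (SE 0.06, 95% interval 0.01 to 0.27; limma, unadjusted p = 0.0385, adjusted p = 0.231). EBF2, known for its role in brown fat cells, lay below the lower quartile of probe sets in all 10 arrays. Its log2 intensity was 3.29, 3.09, 3.27, 3.02 and 3.25 in SOD1(G93A) samples 3, 9, 12, 15 and 18, against 3.31, 3.31, 3.15, 3.32 and 3.17 in wild-type SOD1 samples 2, 8, 11, 14 and 17. The EBF2 groups overlapped, with a log2 fold change of −0.07 (SE 0.07, 95% interval −0.22 to 0.09; limma, adjusted p = 0.71). At so low a level a difference in EBF2 may not be detectable.

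**Figure D1:**
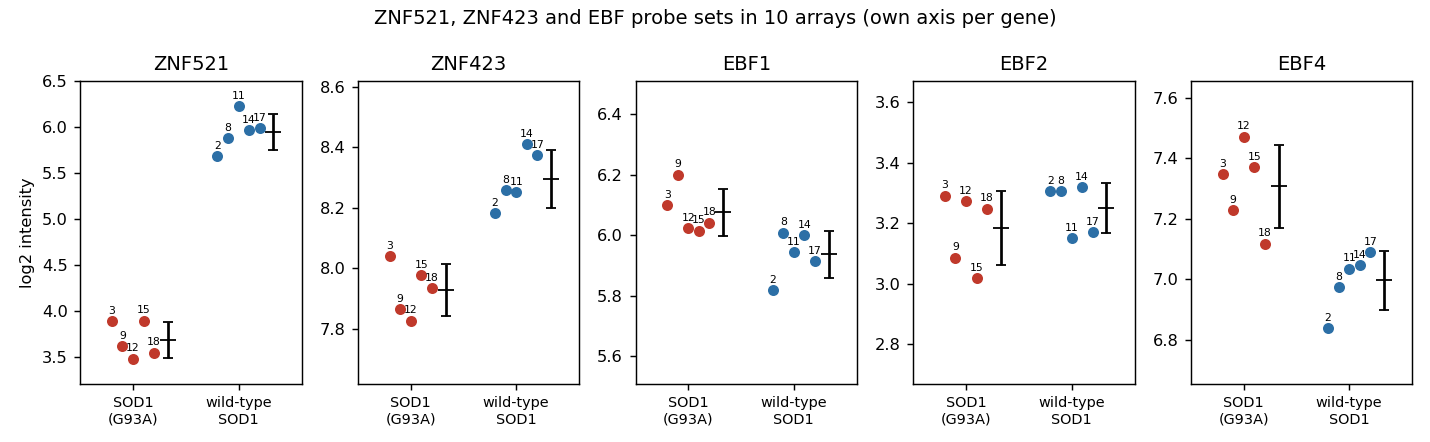
Log2 intensity (y axis, its own range for each gene) of the 5 measured genes, with SOD1(G93A) samples in red on the left and wild-type SOD1 samples in blue on the right; each point is an array with its sample number, and black bars give the mean ± SD (n = 5). ZNF521 lies between 3.49 and 3.90 in SOD1(G93A) arrays and between 5.68 and 6.23 in wild-type SOD1 arrays, and only EBF2 has overlapping groups.

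Of the 4 genes tested, then, ZNF423 was past the threshold as lower and EBF4 as higher, and EBF1 and EBF2 were not past it; ZNF521 was not tested. Over all 22011 probe sets the threshold was passed by 7.46%, with 3.24% higher and 4.23% lower, and over all named genes by 9.60%, with 4.03% higher and 5.57% lower. The groups did not overlap in 4 of the 5 genes, and in 11.4% of all named genes. ZNF521 is among these 4 and entered the set because of its fall, so this count is a description. ZNF521 was the only measured member whose log2 fold change exceeded 1 in size, and 1.18% of named genes passed the threshold with a change of that size.

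The genes around each member on its chromosome were examined next, in the RefSeq gene order. The 3 nearest measured genes on either side of ZNF521, on chromosome 18, had log2 fold changes between −0.06 and 0.15. None of these 6 was past the threshold by limma or by an ordinary linear model, and 1 had an unadjusted p under 0.05 by limma. Around ZNF423, on chromosome 16, the 6 neighbours lay between −0.38 and 0.21. None was called by limma or the ordinary model, with 2 at an unadjusted p under 0.05 by limma. Around EBF4, on chromosome 20, they lay between −0.15 and 0.09, with none called by either test and 0 at an unadjusted p under 0.05 by limma. The low value of ZNF521 was not shared by its neighbours OSBPL1A, IMPACT and SS18, at 0.15, 0.15 and −0.06. Its other near neighbours, HRH4, AQP4 and AQP4-AS1, lay under the lower quartile of probe sets in all arrays. A fall in those genes would not be visible at that level. Among the 10 nearest to ZNF521 on either side, 2 were past the threshold as lower, CABLES1 and TTC39C. CABLES1, a cyclin-dependent kinase partner, fell by 1.46 (SE 0.08). Among the 10 nearest to ZNF423 on either side, 2 were lower, NETO2 at −0.48 (SE 0.08) and PHKB at −0.46 (SE 0.10). Both changes were larger than the −0.37 of ZNF423. Among the 10 nearest to EBF4 on either side, 1 was higher, LZTS3 at 0.34 (SE 0.08). These farther neighbours were named after their values were seen. The counts of 2, 2 and 1 are each out of 20 genes, where 9.60% of all named genes were called.

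Neighbours of the other members included a few called genes. Of the 20 nearest measured genes, 0 were higher and 4 lower around EBF1, 2 and 2 around EBF2, and 2 and 3 around EBF3. Over all named genes 4.03% were higher and 5.57% lower. Beside EBF1, on chromosome 5, LSM11, a part of the particle that processes histone messages, was lower by a log2 fold change of −0.41 (SE 0.07; limma, adjusted p = 0.00548). Beside EBF2, on chromosome 8, CDCA2, a mitotic phosphatase regulator, was lower by −0.41 (SE 0.08; limma, adjusted p = 0.0130), and the 6 neighbours ranged from −0.41 to 0.37. Beside EBF3, on chromosome 10, the receptor phosphatase PTPRE was lower by −0.54 (SE 0.07) and the proliferation marker MKI67 by −0.47 (SE 0.10).

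**Figure D2:**
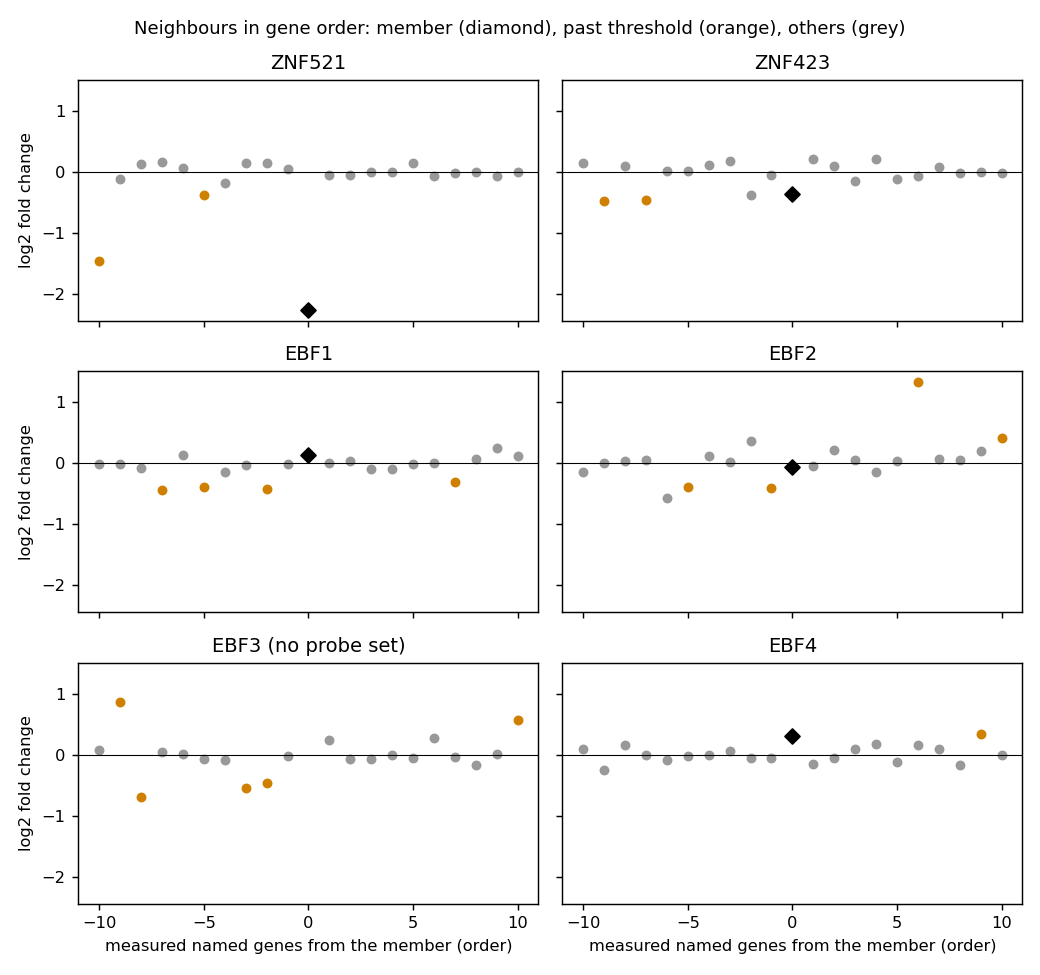
Log2 fold change (SOD1(G93A) minus wild-type SOD1, y axis) of the 10 nearest measured named genes on either side of each gene, by order along the chromosome (x axis); the diamond is the gene itself, orange points passed the threshold and grey points did not. ZNF521 at −2.26 stands below its neighbours, of which CABLES1, at position −10, is the lowest at −1.46; EBF3 has no diamond because it had no probe set.

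The genes whose values ran most like those of ZNF521 were found by centring each gene on its own mean over the 10 arrays and taking the root mean square difference from ZNF521. The nearest was COL4A1, a chain of basement membrane collagen, at 0.16 log2 units, and its partner chain COL4A2 was at 0.19. FEZ1, a kinesin adaptor of axons, was also at 0.19, the ligand gene BMP7 at 0.21 and SPTSSB, a subunit of serine palmitoyltransferase, at 0.25. Their log2 fold changes were −2.13 for COL4A1, −2.04 for COL4A2, −2.05 for FEZ1, −2.05 for BMP7 and −2.14 for SPTSSB. Because ZNF521 differs so much between the groups, the measure picks genes with a group difference of like size. It says nothing of shared control. The nearest to ZNF423 were SLC6A12, a betaine and GABA transporter, IGFBP2, a binding protein of insulin-like growth factors, and CLCN4, a chloride and proton exchanger, at 0.06, 0.07 and 0.07 log2 units. The SLC6A12 call was kept under 8 of 16 alternatives. Those nearest to EBF4 were SPAG4, SGSM2 and PEX6, at 0.06, 0.06 and 0.07 log2 units. SPAG4, SGSM2 and PEX6 were not called (limma, adjusted p = 0.0567, 0.0691 and 0.107). For ZNF423 and EBF4, too, the measure says nothing of shared control.

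**Figure D3:**
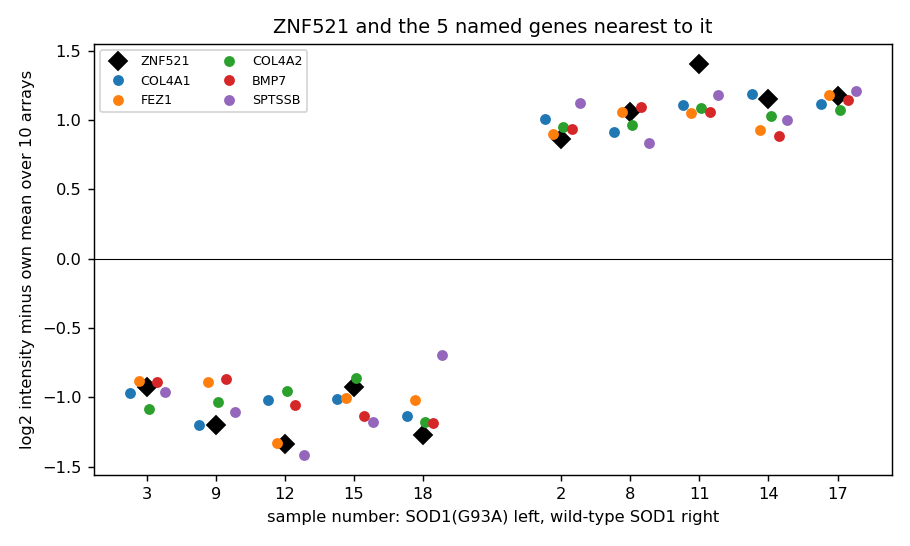
Log2 intensity of ZNF521 (black diamonds) and of its 5 nearest genes (circles), each minus its own mean over the 10 arrays (y axis), by sample (x axis), SOD1(G93A) on the left and wild-type SOD1 on the right. All 6 genes are below their means in every SOD1(G93A) array and above them in every wild-type SOD1 array, which follows from how the genes were picked.

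BMP signals reach the nucleus through SMAD proteins, which ZNF423 binds, and the genes of that pathway were mostly lower where they differed. Of 22 measured genes of 24 listed, 7 were past the threshold as lower and 1 as higher, or 36.4%. Over all named genes the share was 9.60%, with 5.57% lower and 4.03% higher. The median log2 fold change of the list was −0.08, against −0.00 over all named genes, and 18 of the 22 values were below 0. A mean under the lower quartile of probe sets was found for 4 of the 22 genes. The list was drawn up with earlier results of these data known. BMP7 is also among the genes nearest to ZNF521, a place that follows from its group difference of like size and is not a further result.

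Among the ligands, BMP7 was the most changed. Its log2 intensity was 6.13, 6.15, 5.97, 5.89 and 5.83 in SOD1(G93A) samples 3, 9, 12, 15 and 18, against 7.95, 8.12, 8.08, 7.90 and 8.17 in wild-type SOD1 samples 2, 8, 11, 14 and 17. The BMP7 groups were widely separated, with a log2 fold change of −2.05 (SE 0.08; limma, adjusted p = 1.10e-07). BMP2 averaged 4.82 ± 0.45 in SOD1(G93A) arrays and 5.85 ± 0.22 in wild-type SOD1 arrays (SD, n = 5 each), a log2 fold change of −1.03 (SE 0.20; limma, adjusted p = 0.00803). SOD1(G93A) samples 9 and 18 held the lowest BMP2 values, 4.36 and 4.37. BMP4, BMP5 and BMP6 did not pass the threshold, with log2 fold changes from −0.06 to −0.00. BMP4 and BMP5 lay under the lower quartile of probe sets in all arrays. BMP6 did so in all SOD1(G93A) arrays and in 4 of 5 wild-type SOD1 arrays. At so low a level a difference in these ligands may not be detectable.

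The receptors split. BMPR1B, a type I receptor, averaged 8.07 ± 0.14 in SOD1(G93A) arrays and 7.11 ± 0.06 in wild-type SOD1 arrays (SD, n = 5 each), a log2 fold change of 0.96 (SE 0.07; limma, adjusted p = 1.02e-05), and was the only called gene of the list that was higher. BAMBI, a decoy receptor, averaged 8.08 ± 0.19 in SOD1(G93A) arrays and 9.23 ± 0.06 in wild-type SOD1 arrays (SD, n = 5 each), a log2 fold change of −1.15 (SE 0.09; limma, adjusted p = 1.37e-05). The type I receptor ACVR1 and the type II receptors BMPR2 and ACVR2A did not pass the threshold, at −0.04, −0.06 and −0.10.

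The SMAD messengers showed little difference. SMAD5 was lower by a log2 fold change of −0.33 (SE 0.08; limma, adjusted p = 0.0425), and SMAD1, SMAD4, SMAD9 and the inhibitors SMAD6 and SMAD7 were not called, with values from −0.14 to 0.06. The call on the log2 fold change of SMAD5 was lost in the ordinary linear model (adjusted p = 0.0661), without samples 17 and 18 together (adjusted p = 0.0934) and without any 1 of samples 3, 15, 2, 8, 11, 14 or 17 (adjusted p = 0.0742 to 0.0948).

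The ID genes, which encode inhibitors of basic helix-loop-helix factors, were lower in 3 of 4 cases. ID4 had log2 intensities of 5.27, 5.14, 5.69, 5.81 and 5.42 in SOD1(G93A) samples 3, 9, 12, 15 and 18, against 7.15, 6.63, 6.54, 6.78 and 6.90 in wild-type SOD1 samples 2, 8, 11, 14 and 17. No ID4 value was shared between the ranges, and the log2 fold change was −1.33 (SE 0.15; limma, adjusted p = 0.000229). ID2 averaged 10.55 ± 0.23 in SOD1(G93A) arrays and 11.53 ± 0.04 in wild-type SOD1 arrays (SD, n = 5 each), a log2 fold change of −0.98 (SE 0.10; limma, adjusted p = 0.000107). ID3 averaged 8.62 ± 0.17 in SOD1(G93A) arrays and 9.15 ± 0.27 in wild-type SOD1 arrays (SD, n = 5 each), with overlapping groups, since wild-type sample 8 was at 8.71 and SOD1(G93A) samples 3 and 15 were at 8.80. Its log2 fold change was −0.53 (SE 0.13; limma, adjusted p = 0.0298). ID1 did not pass the threshold, at −0.28 (SE 0.12; limma, adjusted p = 0.228). Nor did MSX1 of the same list, at −0.18 (SE 0.07; limma, adjusted p = 0.205). Whether the output of BMP signalling differed between the lines was not tested.

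The call on the log2 fold change of ID3 was lost in the ordinary linear model (adjusted p = 0.0670), with array weights (adjusted p = 0.0521), without samples 17 and 18 together (adjusted p = 0.140) and without any 1 of samples 9, 12, 18, 2, 11, 14 or 17 (adjusted p = 0.0628 to 0.0755). ID2 lies in a stretch of chromosome 2, from SH3YL1 to ACYP2. In it 101 of 201 named genes were lower and 2 higher, with a median log2 fold change of −0.37. The ends of the stretch were set after the data were seen, so these counts are a description. Without ID2, 6 of 21 BMP and SMAD genes were lower and 1 higher, a count made after the data were seen. The part of the stretch in the ID2 difference was not tested.

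**Figure D4:**
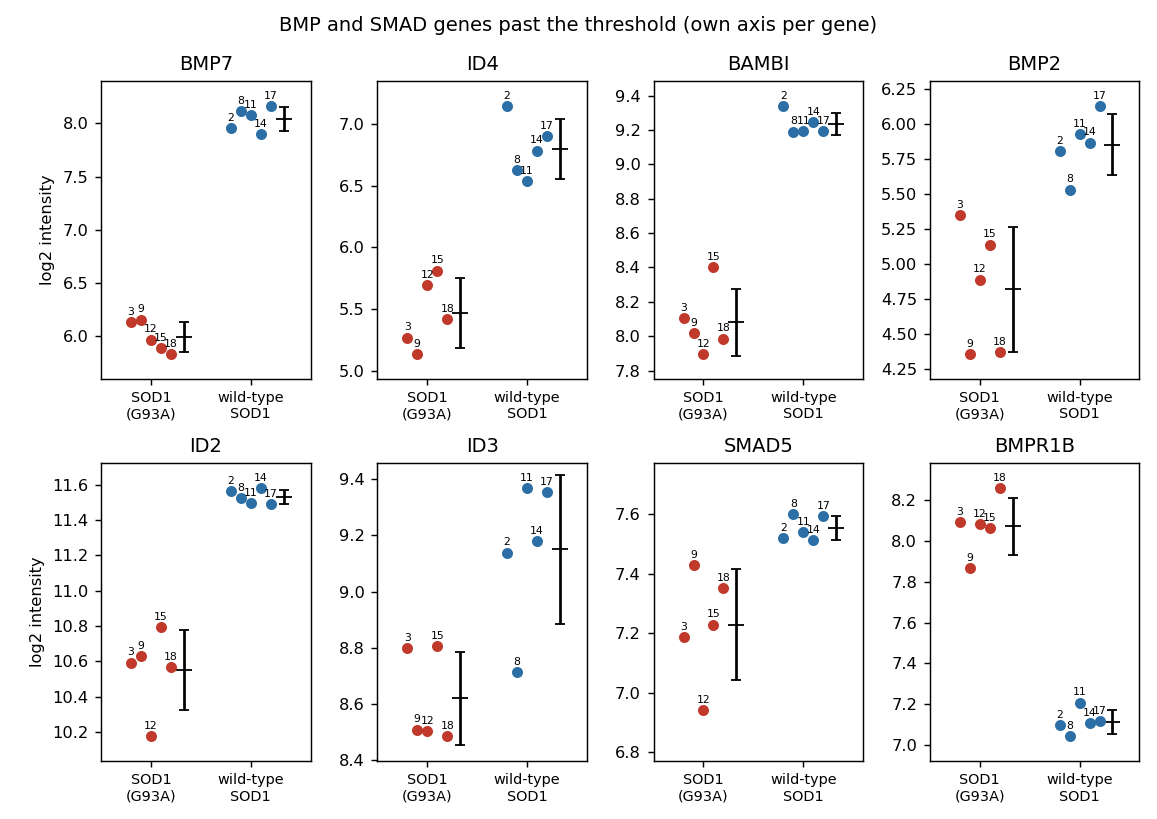
Log2 intensity (y axis, its own range for each gene) of the 8 BMP and SMAD genes past the threshold, with SOD1(G93A) samples in red on the left and wild-type SOD1 samples in blue on the right; each point is an array with its sample number, and black bars give the mean ± SD (n = 5). BMPR1B is higher in SOD1(G93A) arrays, the other 7 genes are lower, and the groups overlap only for ID3.

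**Figure D5:**
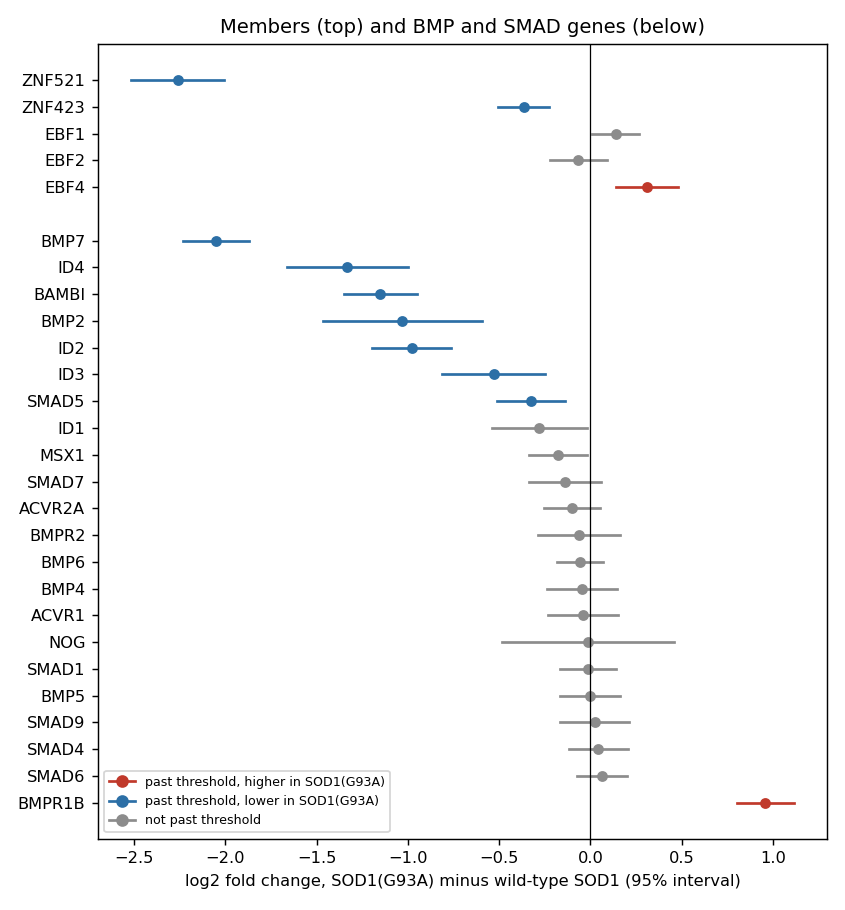
Log2 fold change (x axis, SOD1(G93A) minus wild-type SOD1) with its 95% interval for the 5 measured members (top) and the 22 measured BMP and SMAD genes (below); red and blue mark genes past the threshold as higher and lower, and grey the others, with ZNF521 drawn in blue as a description. The interval of ZNF521, which takes no account of its choice by this difference, runs from −2.52 to −2.01. That of ZNF423 runs from −0.51 to −0.22.

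Of the NuRD complex, which both zinc finger proteins recruit, 10 of 15 genes were measured, and 1 was lower and 0 higher. MTA3 averaged 8.34 ± 0.18 in SOD1(G93A) arrays and 8.88 ± 0.07 in wild-type SOD1 arrays (SD, n = 5 each), a log2 fold change of −0.54 (SE 0.08; limma, adjusted p = 0.00219). MTA3 also lies in the chromosome 2 stretch named above. The deacetylases HDAC1 and HDAC2 differed by 0.03 (SE 0.12) and −0.01 (SE 0.12), and the histone-binding subunit RBBP7 by 0.15 (SE 0.06; limma, adjusted p = 0.233). The share called, 10.0%, was near the 9.60% of all named genes. Without SOD1(G93A) sample 12, 2 NuRD genes were called.

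Genes of the retinoic acid response, in which ZNF423 acts as a cofactor, changed in both directions. Of 15 measured genes of 17 listed, 3 rose and 2 fell, or 33.3%. Over all named genes the share was 9.60%, with 4.03% higher and 5.57% lower. This list, too, was drawn up with earlier results of these data known. The retinoic acid carrier CRABP2 averaged 8.35 ± 0.22 in SOD1(G93A) arrays and 6.10 ± 0.35 in wild-type SOD1 arrays (SD, n = 5 each), a log2 fold change of 2.25 (SE 0.17; limma, adjusted p = 9.71e-06). The receptor gene RARB averaged 7.17 ± 0.22 in SOD1(G93A) arrays and 5.73 ± 0.28 in wild-type SOD1 arrays, a log2 fold change of 1.44 (SE 0.14; limma, adjusted p = 9.25e-05). The partner receptor RXRA averaged 6.34 ± 0.13 in SOD1(G93A) arrays and 7.14 ± 0.14 in wild-type SOD1 arrays, a log2 fold change of −0.80 (SE 0.08; limma, adjusted p = 0.000154). Outside the naming rule and chosen after their values were seen, ALDH1A3, an enzyme that makes retinoic acid, rose by 0.70 (SE 0.07) and the retinol transporter STRA6 fell by 0.49 (SE 0.07). CYP26A1, CYP26B1, DHRS3 and TGM2 were not called, with log2 fold changes of 0.08, 0.03, 0.21 and −0.07. CYP26A1 lay under the lower quartile of probe sets in all arrays. The list's median log2 fold change was 0.07.

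For genes that EBF factors control in other tissues, calls are set against the 9.60% of all named genes. Many of these genes were dim, with a mean under the lower quartile of probe sets for 4 of 12 B-lineage, 3 of 8 olfactory and 7 of 15 adipogenic genes. Among 12 measured B-lineage genes downstream of EBF1, 0 were called by limma or the ordinary model, with 0 at an unadjusted p under 0.05, and the most changed was MS4A1 at a log2 fold change of 0.25. Among 8 olfactory signalling genes, a class in which EBF sites were first described, 0 were called by either test and 1 had an unadjusted p under 0.05. Of 15 adipogenic genes, to which EBF2, ZNF423 and ZNF521 are linked in mouse, 1 (6.67%) was called as lower, the lipase LPL, with a log2 fold change of −0.48 (SE 0.12; limma, adjusted p = 0.0312). LPL lay under the lower quartile of probe sets in all 10 arrays, at means of 3.08 in SOD1(G93A) arrays and 3.56 in wild-type SOD1 arrays, so its fold is limited by low signal. The call on the log2 fold change of LPL was lost in the ordinary linear model (adjusted p = 0.0665), without samples 17 and 18 together and without any 1 of samples 3, 9, 12, 15, 18, 2, 8 or 11 (adjusted p up to 0.0730).

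Of 14 measured RUNX factors and bone genes, a lineage in which ZNF521 restrains RUNX2 in mouse, 1 (7.14%) fell, near the 9.60% of all named genes. This was the homeobox gene DLX5, which fell by 0.69 (SE 0.15; limma, adjusted p = 0.0186). The call on the log2 fold change of DLX5 was lost in the ordinary linear model (adjusted p = 0.0510) and without SOD1(G93A) sample 15 (adjusted p = 0.0523), and 2 genes of this list were called without SOD1(G93A) sample 3. Of 11 measured early neural and proneural factors, 2 (18.2%) rose, where 9.60% of all named genes were called. The class includes genes that ZNF521 activates in mouse embryonic stem cells. The list's median log2 fold change was −0.00, with 5 values above 0 and 6 below. SOX1, SOX3 and PAX6 were not called, at −0.00, −0.07 and 0.05. PAX6 lay under the lower quartile of probe sets in all arrays. ZIC1, a zinc finger factor of the dorsal neural tube, rose by 0.77 (SE 0.11; limma, adjusted p = 0.00132), and the proneural factor NEUROG2 rose by 0.76 (SE 0.16; limma, adjusted p = 0.0123) with overlapping groups.

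The medians of the arrays ran from 6.26 to 6.34 log2 units. The first principal component, with 29.1% of the variance, separated the groups. SOD1 itself averaged 9.55 ± 0.09 in SOD1(G93A) arrays and 9.78 ± 0.13 in wild-type SOD1 arrays (SD, n = 5 each; limma, adjusted p = 0.107), and the probe set may not separate endogenous, wild-type and mutant transcripts. Of 10 noradrenergic neuroblastoma markers 6 were measured, of which CHGA was higher and GATA2 and GATA3 were lower, and their mean per array was 9.04 to 9.23 in SOD1(G93A) and 9.00 to 9.20 in wild-type SOD1. Of 8 mesenchymal markers 7 were measured, of which VIM, FN1, YAP1 and CD44 were higher and SNAI2 was lower. TWIST1 and PRRX1 were not called, with log2 fold changes of −0.29 and −0.05. PRRX1 lay under the lower quartile of probe sets in all arrays. The mesenchymal mean per array was 7.30 to 7.46 in SOD1(G93A) and 7.17 to 7.41 in wild-type SOD1. The share called was 50% of the noradrenergic and 71.4% of the mesenchymal markers, where 9.60% of all named genes were called. Of the Schwann cell markers 4 were measured and 1 (25%), S100B, was higher. S100B lay under the lower quartile of probe sets in 4 of 5 wild-type SOD1 arrays. Among 5 B cell, 4 adipocyte and 4 endothelial markers no call was made by limma or the ordinary model. These markers had 0 unadjusted p under 0.05 by limma. A mean under the lower quartile was found for 2 of 4 Schwann cell, 1 of 5 B cell, 2 of 4 adipocyte and 2 of 4 endothelial markers. At so low a level a difference may not be detectable. The part of the mesenchymal markers in the differences of ZNF521, ZNF423 and the BMP genes was not tested. In such bulk RNA, fewer cells of a type and less RNA per cell cannot be told apart.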

How the data were processed

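RNA from 10 SH-SY5Y samples was measured on exon arrays, 5 per line. What was deposited is a table of log2 intensities, gene level, for 22011 probe sets, which the authors made with RMA, per the submitters' processing notes, in oneChannelGUI 1.6.5, per the labels. RMA equalises the arrays' distributions, so a shift of all genes together is not visible, and it compresses dim values. Build and filters: not given in the sources used here. Precision is limited by there being 10 arrays.

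Probe sets with exactly 1 symbol (14432) were named through the platform annotation, updated by gene identifier in RefSeq GRCh38.p14, with the brightest kept for each gene. The fit was limma 3.58.1 in R 4.3.3, 2-sided and without a level filter, with p-values adjusted by Benjamini-Hochberg across the whole table. The code was tested on simulated data. Each log2 fold change is the SOD1(G93A) mean minus the wild-type SOD1 mean.

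The members and the 8 gene lists were chosen with earlier results of these data known. Named were the members, SOD1, up to 3 called genes per list with the largest changes, the nearest genes by pattern (5 for ZNF521, 3 for other called members) and called genes among 3 neighbours on each side. Further BMP, retinoic acid, early neural, neighbouring and marker genes were named after their values were seen. Alternatives were an ordinary linear model, a trended robust prior, centring, repeated quantile normalization, array weights, a level filter, a 2-fold threshold and leaving out arrays.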

Additional observations from a re-analysis of the deposited data

Results flagged for a closer look

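SOD1(G93A) sample 15 had a VIM value of 11.24 on the log2 scale, while the other 4 arrays of its group lay between 10.85 and 10.94. Wild-type SOD1 sample 14 had a PTPRE value of 5.49, while the other 4 arrays of its group lay between 5.76 and 5.86. Each was farther from its group than Dixon's 95% critical value for 5 samples allows (0.71). Among 94 groups of 5 values examined these were 2, and chance alone picks about 1 in 20 groups.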

How the results depend on the processing

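The directions of ZNF521, ZNF423, EBF1, EBF2 and EBF4 were the same under every alternative that gave a value. ZNF521 ranged from −2.33 to −2.19 and ZNF423 from −0.40 to −0.34 (limma or ordinary linear model, adjusted p for ZNF423 0.00218 to 0.0303). EBF1 ranged from 0.11 to 0.16 and EBF2 from −0.10 to −0.03, never past the threshold, and EBF4 from 0.27 to 0.38, with adjusted p from 0.0150 to 0.0851. Asking also for a 2-fold change left 1 member (ZNF521) and 192 of 1643 probe sets called and, added after the data were seen, 6 of 18 list genes, by construction. Leaving out 1 array gave 2 to 3 called members (ZNF521, not read as a test, among them), 1274 to 1562 called probe sets and 15 to 17 called list genes of 107, against 18 with all arrays. BMP and SMAD genes called numbered 6 to 8 under the alternatives that kept the adjusted p threshold alone, and 4 with a 2-fold change also asked. Leaving out samples 17 and 18 together was added after the data were seen. With the level filter, ZNF521, EBF1 and EBF2 dropped out, and no other probe set existed for any member, so that alternative gave no value. Of the recomputed values of named single genes, 733 kept direction and side of the threshold, 48 lost the call, 6 gained it and none reversed. The cause of the lost EBF4, SLC6A12, SMAD5, ID3, LPL and DLX5 calls was not tested. No paired or blocked fit was run, because the groups share no replicate numbers and no label states a pairing. Whether samples with adjacent numbers were handled together is not stated. A batch of that kind was not modelled in any p-value given here. Signal limits EBF2, LPL, BMP4, BMP5, CYP26A1, PAX6 and PRRX1, which were dim in all arrays. It also limits BMP6, which was dim in most, ZNF521 in the SOD1(G93A) arrays and S100B in the wild-type SOD1 arrays.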
